A study of Homo sapiens with 10 samples.

Results

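The ADAM, ADAMTS, ADAMTS-like (ADAMTSL), MMP and TIMP genes encode the zinc metalloproteases that act at the cell surface and in the extracellular matrix, together with close relatives and the TIMP inhibitors. Members were the protein-coding genes whose symbol is one of these family names followed by a number. There were 70 of them among 19737 protein-coding gene entries and 58051 gene entries in all: 20 ADAM, 19 ADAMTS, 5 ADAMTSL, 22 MMP and 4 TIMP genes. ADAM5 and ADAM6 also carry such names, but they are annotated as pseudogenes and were left out. RNA was sequenced from HAP1, a near-haploid human line that descends from the leukemia line KBM-7, to find genes that differ between RBM4 knockout and wild type cells. The paired-end libraries comprised 3 from RBM4 knockout clone 1, 2 from RBM4 knockout clone 2 and 3 from wild type cells. A single-end pair held 1 RBM4 knockout library, whose clone is not given, and 1 wild type library. All were grown without any other treatment named in the labels, and each knockout group is a single clone, so a feature of a clone and an effect of the knockout cannot be told apart within it.

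ADAM proteins are membrane-anchored, and those with an active zinc site release the outer parts of growth factors, cytokines and adhesion molecules from the cell surface. ADAMTS proteins are secreted and bind the matrix, where they cut proteoglycans, trim procollagens or process clotting factors. The ADAMTSL proteins resemble them but have no protease domain and bind fibrillin microfibrils. MMPs degrade collagens, laminins and other matrix proteins, either as secreted enzymes or, in the membrane-type group, as enzymes held at the cell surface. The TIMPs are small proteins that sit in the active site of MMPs and, in part, of ADAM and ADAMTS enzymes.

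Total counts ran from 33192095 to 55617525 in the paired-end libraries, and were 41265510 in the single-end knockout and 44140706 in the single-end wild type library. RBM4, the targeted gene, stood at 22.3, 22.9 and 24.5 CPM (counts per 1000000 scaled counts) in clone 1 and 25.3 and 25.8 CPM in clone 2, against 79.8, 79.8 and 78.7 CPM in wild type libraries. Blood markers other than CD68 were near absent in every group, although KBM-7 comes from a leukemia. MPO had no count in any library, PTPRC reached at most 1 count, and the 7 blood markers summed to 1.35 to 1.51 CPM in clone 1, 1.44 to 1.53 CPM in clone 2 and 1.14 to 1.47 CPM in wild type libraries. The 4 epithelial markers, mostly KRT18, summed to 56.3 to 64.3 CPM in clone 1, 68.6 to 75.4 CPM in clone 2 and 41.0 to 47.2 CPM in wild type libraries, and CDH1 reached at most 1 count. The 4 erythroid markers summed to at most 0.322 CPM in any library, with none from HBG1 or GATA1. The 5 fibroblast markers, nearly all COL1A1, summed to 18.6 to 22.3 CPM in clone 1, 26.2 to 26.7 CPM in clone 2 and 13.2 to 14.1 CPM in wild type libraries, while DCN and LUM had no count. The part of these marker differences in the results was not tested. The wild type libraries carry sample numbers 1 to 3 in the column headers, while 1 library of each clone is in the run of 1 to 5 and the others are numbered 11 to 13, so each comparison was also made with a term for these runs of numbers and within numbers 1 to 5. Within numbers 1 to 5 the spread is estimated from the wild type libraries alone, so calls there do not measure the spread of knockout libraries.

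Many members of the repertoire were off in HAP1 cells, and these are listed first. Of the 70 members, 39 passed the filter on low counts, a level of about 0.243 CPM in enough libraries: 11 ADAM, 14 ADAMTS, 3 ADAMTSL, 8 MMP and 3 TIMP genes. Another 13 had no count in any paired-end library. They were ADAM2, ADAM7, ADAM28, ADAM29, ADAMTS18, ADAMTS20, MMP1, MMP3, MMP7, MMP8, MMP12, MMP26 and MMP27. With no count, the floor of 3 counts allows a level of up to 0.0539 CPM in the deepest and 0.0904 CPM in the shallowest library, counting error only. The remaining 18 had counts but did not pass, and the largest count of any of them in a paired-end library was 11, for ADAMTSL3. MMP28 reached 9 counts, ADAM20 7, MMP9, the secreted gelatinase, 5, MMP19 5, ADAM18, ADAM21, ADAMTS14 and MMP21 3, and MMP13, collagenase-3, 2. ADAM30, ADAM33, ADAMTS16, ADAMTS19, ADAMTSL2, MMP10, MMP20 and TIMP4 reached 1 count.

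Some of the silent genes are neighbours, meaning here successive members at most 500000 bases apart, whether or not other genes lie between them. MMP7, MMP20, MMP27, MMP8, MMP10, MMP1, MMP3, MMP12 and MMP13 lie in a row on chromosome 11, from 102520508 to 102955734 (GRCh38, GENCODE 29), and the largest count of any of them was 2. Elsewhere expressed and silent members were neighbours in this sense. ADAMTS13, which passed, has as its neighbour ADAMTSL2, 72761 bases away, with at most 1 count.

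Promoter windows were set beside these levels, for members that passed the filter and members that did not. The filter used all groups, so this split is not one by wild type level. ADAM12, which passed, is at 0.00501 CPM per kb in wild type cells, and ADAMTSL3, which did not, is at 0.0142. The RefSeq promoter table (GRCh38.p14) held 44 entries for 43 members, each 300 bases from 250 before to 50 after the annotated start. These were 25 members that passed the filter and 18 that did not. Some of the highest members, such as ADAM9, TIMP2, MMP17 and ADAM11, have no window. Windows of 6 genes are printed 5′ to 3′ in the direction of the gene. ADAM12, ADAMTS7 and MMP15 are shown because they were higher in both knockout clones, ADAMTSL4 because it was lower in 1 clone, and MMP10 and MMP7 as genes of the silent chromosome 11 cluster. Capitals mark GGGCGG (the GC box), TGANTCA (a loose form of the AP-1 site with any middle base) and TATAAA (the TATA box). Matches on either strand are marked, so that CCGCCC also marks a GC box, and matches may overlap.
ADAM12, chr10:126388428-126388727, minus strand: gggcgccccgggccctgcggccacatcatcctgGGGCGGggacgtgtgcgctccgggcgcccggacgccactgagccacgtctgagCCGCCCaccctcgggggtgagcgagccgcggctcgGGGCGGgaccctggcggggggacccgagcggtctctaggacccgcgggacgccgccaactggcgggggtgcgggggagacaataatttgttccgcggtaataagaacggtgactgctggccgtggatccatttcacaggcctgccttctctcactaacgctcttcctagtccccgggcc
ADAMTS7, chr15:78811415-78811714, minus strand: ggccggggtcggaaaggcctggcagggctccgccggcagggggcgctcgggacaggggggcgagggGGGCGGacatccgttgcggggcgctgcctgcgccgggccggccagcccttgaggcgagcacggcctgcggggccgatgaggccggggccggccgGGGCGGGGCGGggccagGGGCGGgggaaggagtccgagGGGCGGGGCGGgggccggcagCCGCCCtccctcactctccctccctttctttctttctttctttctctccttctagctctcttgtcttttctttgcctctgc
MMP15, chr16:58025504-58025803, plus strand: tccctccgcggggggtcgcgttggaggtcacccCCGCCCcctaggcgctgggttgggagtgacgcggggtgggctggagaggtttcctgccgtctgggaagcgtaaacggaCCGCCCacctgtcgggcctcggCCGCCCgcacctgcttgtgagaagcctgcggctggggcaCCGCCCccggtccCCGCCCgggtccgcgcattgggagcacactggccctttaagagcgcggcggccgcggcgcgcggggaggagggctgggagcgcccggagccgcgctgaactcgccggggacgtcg
ADAMTSL4, chr1:150549158-150549457, plus strand: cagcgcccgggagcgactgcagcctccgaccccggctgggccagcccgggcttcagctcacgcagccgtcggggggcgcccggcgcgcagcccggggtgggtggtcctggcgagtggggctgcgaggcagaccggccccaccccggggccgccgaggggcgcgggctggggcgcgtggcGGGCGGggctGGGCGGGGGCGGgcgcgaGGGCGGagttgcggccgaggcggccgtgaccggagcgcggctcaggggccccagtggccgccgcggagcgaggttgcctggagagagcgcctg
MMP10, chr11:102780579-102780878, minus strand: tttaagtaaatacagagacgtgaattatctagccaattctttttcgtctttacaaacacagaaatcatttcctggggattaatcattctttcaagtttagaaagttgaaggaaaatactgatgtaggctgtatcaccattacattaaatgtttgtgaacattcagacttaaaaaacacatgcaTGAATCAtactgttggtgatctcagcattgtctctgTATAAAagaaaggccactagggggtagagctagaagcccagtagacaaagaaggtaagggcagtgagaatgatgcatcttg
MMP7, chr11:102530698-102530997, minus strand: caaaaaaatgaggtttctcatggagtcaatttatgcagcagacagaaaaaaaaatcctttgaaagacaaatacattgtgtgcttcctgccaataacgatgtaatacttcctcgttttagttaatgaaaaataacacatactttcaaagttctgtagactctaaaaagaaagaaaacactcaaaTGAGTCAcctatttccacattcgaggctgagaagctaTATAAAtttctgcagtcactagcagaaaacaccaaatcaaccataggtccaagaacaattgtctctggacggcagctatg
The ADAM12 window holds 3 GC boxes, that of ADAMTS7 7, that of MMP15 5 and that of ADAMTSL4 4, and none of these has a TGANTCA or TATA match. The MMP10 and MMP7 windows have no GC box, and each has 1 TGANTCA and 1 TATA match. The first reads TGAATCA in MMP10 and TGAGTCA in MMP7. The other windows held for the chromosome 11 cluster vary. That of MMP20 has both matches, that of MMP8 has TATA but no TGANTCA, and that of MMP27 has neither. The 26 windows of members that passed the filter had a median GC content of 73.3% (52% to 83%) and a median of 30.5 CpG pairs. The 18 windows of members that did not pass had a median GC content of 49% (33.3% to 80.7%) and a median of 7 CpG pairs. Over all 35116 windows in the table the medians were 58.7% and 14 CpG pairs. A GC box was present in 22 of the 26 windows of members that passed and 7 of the 18 that did not, against 45% of all windows. TATAAA was present in 1 of 26 and 8 of 18 windows, against 11.5% of all, and TGANTCA in 1 of 26 and 3 of 18, against 7.71% of all. These letter matches are a description of the windows and not of factor binding.

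**Figure D1:**
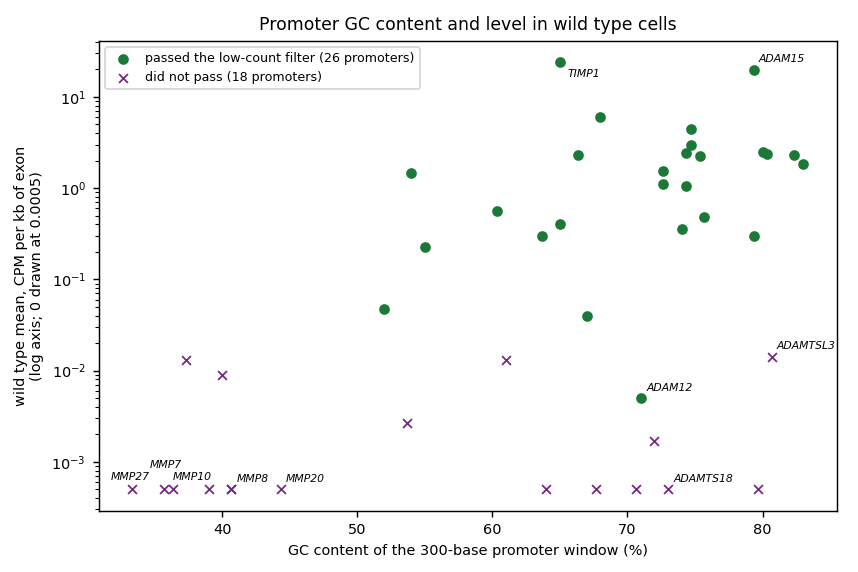
GC content of the promoter window (x axis, %) and wild type level of the gene (y axis, CPM per kb of exon, log scale, genes at 0 drawn at 0.0005), with 1 point per promoter entry. Windows of genes that passed the filter lie between 52% and 83% GC, while the crosses of genes that did not pass run from 33.3% to 80.7%, with the chromosome 11 MMP genes at the AT-rich end and ADAMTS18 and ADAMTSL3 among the GC-rich exceptions.

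Between genes, levels were compared as CPM per kilobase of exon, since longer genes collect more reads. In wild type cells the inhibitor TIMP1 was the highest member at 24.1 ± 2.70 CPM per kb (SD, n = 3), followed by the sheddase ADAM15 at 19.96 ± 1.02. ADAM9, another cell surface protease, stood at 10.5 ± 0.305 and TIMP2, the inhibitor that also helps to activate pro-MMP2, at 9.98 ± 0.263, and the libraries of this pair overlapped. Below them came the membrane-type protease MMP17 at 8.21 ± 0.394, the main sheddase of Notch and N-cadherin, ADAM10, at 5.99 ± 0.0778, the protease-dead ADAM11 at 5.35 ± 0.289, and ADAM17, which releases TNF and several EGF receptor ligands, at 4.47 ± 0.183. Each of these was above the next in every wild type library. ADAM23 and MMP16 overlapped at 2.96 ± 0.0827 and 2.87 ± 0.0619. Then MMP24, ADAMTS7, ADAMTS2, ADAMTSL4, ADAM22 and MMP15 formed a run from 2.47 to 2.25 CPM per kb in which each overlapped the next. At the low end were ADAMTS4 at 0.0221, ADAM12 at 0.00501 and ADAMTS5 at 0.00385 CPM per kb. The secreted MMPs that passed were MMP11 at 1.05 ± 0.0939 and MMP2 at 0.0316 ± 0.0159, so the MMP RNA of these cells was mostly of membrane types.

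Summed over each family, the CPM per kb of the ADAMTS genes was 10.7 to 12.2 in clone 1, 11.27 and 11.03 in clone 2 and 9.44 to 10.0 in wild type libraries, with no overlap. TIMP sums were 38.6 to 42.8 in clone 1, 40.0 and 39.5 in clone 2 and 33.2 to 38.5 in wild type libraries, again without overlap but with nearly touching ends. ADAM sums overlapped at 50.5 to 53.0 in clone 1, 52.4 and 51.4 in clone 2 and 52.0 to 53.3 in wild type libraries. MMP sums overlapped too, at 16.7 to 18.2 in clone 1, 17.8 and 16.5 in clone 2 and 17.6 to 17.9 in wild type libraries. ADAMTSL sums were 6.68 to 8.04 in clone 1 and 4.99 and 5.20 in clone 2, against 5.12 to 6.13 in wild type libraries. Clone 1 was above wild type, and clone 2 overlapped the low end of the wild type range.

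**Figure D2:**
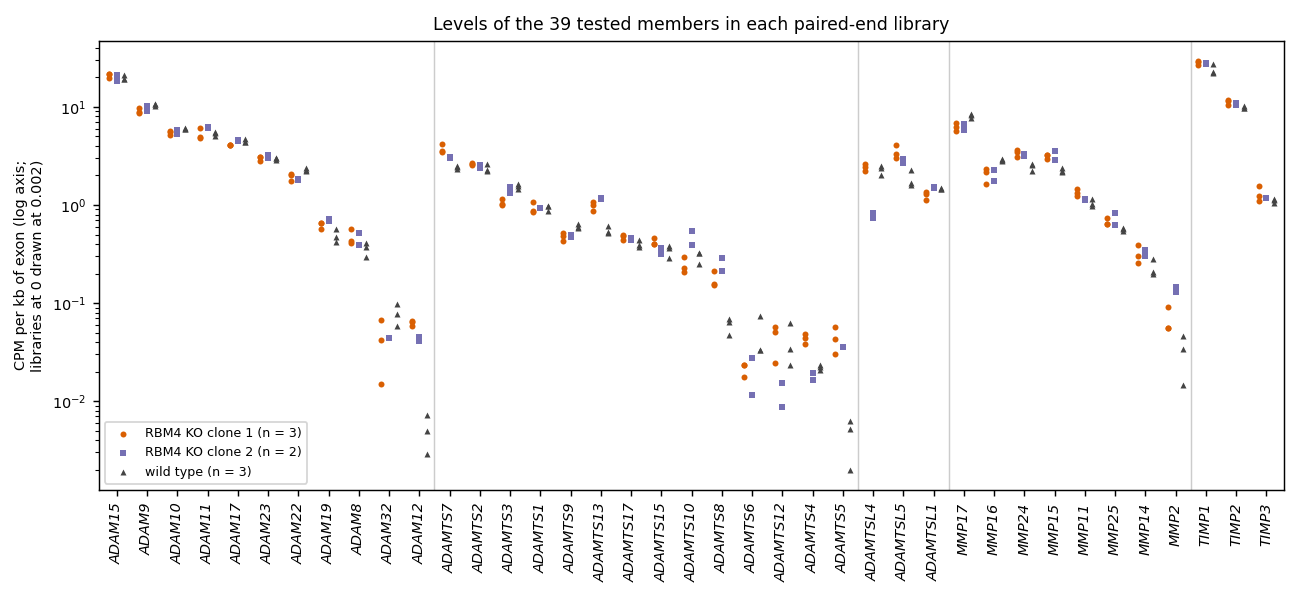
CPM per kb of exon (y axis, log scale, libraries at 0 drawn at 0.002) of the 39 members that passed the filter, by family and by falling wild type level, with 1 point per library of knockout clone 1, knockout clone 2 and wild type. Most members keep their place in all 3 groups, ADAM12 and ADAMTS5 lie far above wild type in both clones, and ADAMTSL4 lies below wild type in clone 2 only.

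More members were higher than lower in the knockout clones. With both clones averaged, against wild type, 11 of the 39 members rose (28.2%), where 9.87% of all 20747 features tested rose, and 6 fell (15.4%), where 8.09% of all features fell. Calls rest on edgeR's quasi-likelihood test, with p adjusted over all features and a threshold of 0.05. The median log2 fold change was 0.14 over the 39 members and 0.002 over all features. ADAM12, ADAMTS5 and MMP2 passed the filter through knockout libraries alone, and ADAMTS4 through clone 1, so these counts describe the members that passed and are no test of the families. In clone 1 alone, 10 members rose (9.37% of all features) and 6 fell (6.64%), and in clone 2 alone 10 rose (6.18%) and 3 fell (4.59%). Called higher in each clone were 8 members (4.42% of all features): ADAM12, ADAMTS5, ADAMTS7, ADAMTS8, ADAMTS13, ADAMTSL5, MMP15 and MMP24. Called lower in each clone were ADAM22 and MMP17, where 3.09% of all features were. With the GC correction described further on, 5 members were called higher in each clone (3.71% of all features), since ADAMTS7 (clone 2 adjusted p = 0.0985), ADAMTSL5 (clone 2, 0.0523) and MMP24 (0.0516 in clone 1 and 0.138 in clone 2) were not, and MMP17 alone was called lower in each. With a term for the runs of sample numbers the count was 6 (4.93%), since ADAMTSL5 (0.0998) and MMP24 (0.0527) missed the threshold in clone 2. It was 3 without clone 2 replicate 1 (2.19%), where ADAM12, ADAMTS8 and ADAMTS13 were left and clone 2 is a single library, 5 without clone 2 replicate 2 or wild type replicate 1, and no member was called lower in each without wild type replicate 1. The clones share their wild type libraries, so these counts are not independent of each other. All 5 knockout libraries lay above all wild type libraries for 12 members, where 13.5% of all features did, and below them for 7 members, where 11.8% did.

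The counts moved with the libraries used, and so did the shares of all features. Without wild type replicate 1, 11 members were called in the mean of the clones, 9 higher (5.1% of all features) and 2 lower (3.87%). Within sample numbers 1 to 5 the split was 8 higher (10.8%) and 9 lower (12.3%), and with a term for the runs of numbers 10 higher (9.62%) and 9 lower (10.1%). In clone 1, where 16 members and 16% of all features were called in either direction, 10 members were called without wild type replicate 1 (7.79%) or replicate 2 (9.32%). In clone 2, with 13 members and 10.8% of all features called, 7 members were called without wild type replicate 1 (6.16%), 6 without clone 2 replicate 1 (4.77%) and 8 without clone 2 replicate 2 (6.72%). With at least 1 CPM asked of 2 libraries, which drops ADAM12, ADAMTS5, ADAMTS8 and MMP2 among others, 7 of 31 members were higher (11.3%) and 7 lower (10.9%). RNA content cannot separate fewer cells of a kind from less RNA per cell, so all differences are of RNA in the bulk.

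**Figure D3:**
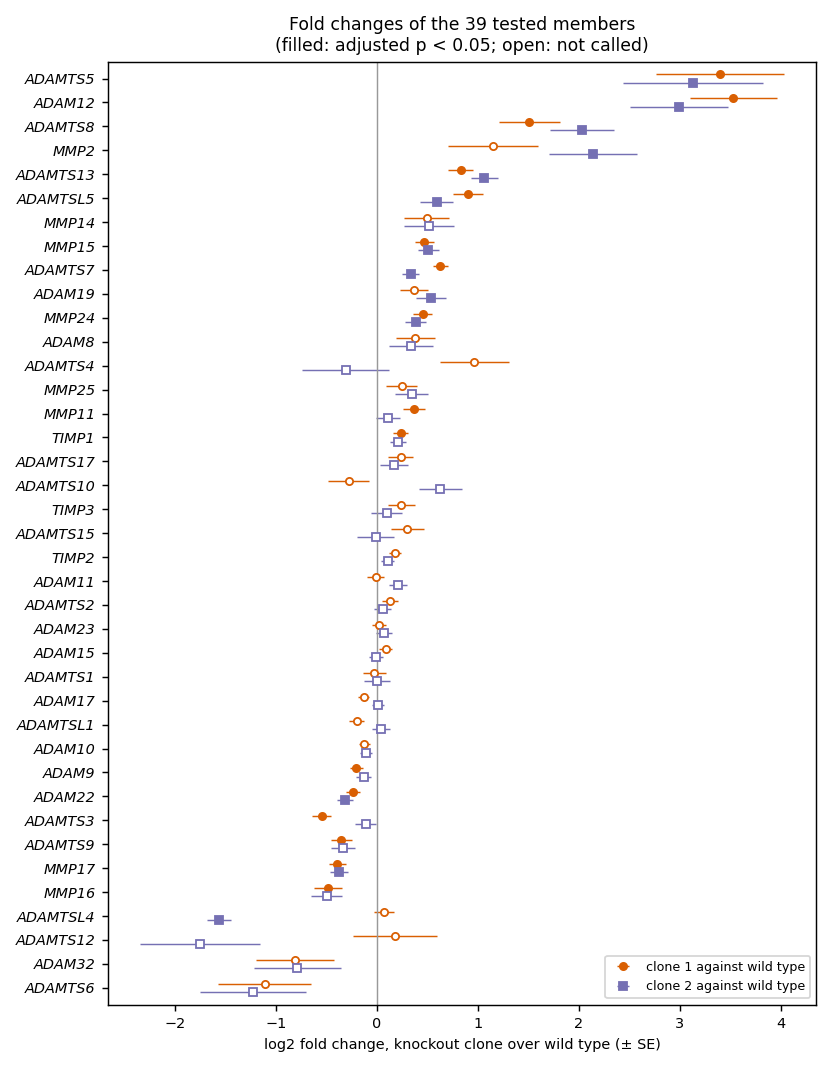
Log2 fold change over wild type (x axis, with SE) of the 39 members that passed the filter, for clone 1 (circles) and clone 2 (squares), ordered by the mean of the clones, filled where the adjusted p was below 0.05. ADAMTS5 and ADAM12 lead at about 3 in both clones, and the well expressed ADAM genes sit close to 0. ADAMTSL4 and ADAMTS12 lie far from wild type in clone 2 only, where ADAMTSL4 was called and ADAMTS12, at low counts, was not.

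Among the ADAM genes with an active protease domain, ADAM12 stood out. ADAM12, which releases the EGF receptor ligand HB-EGF and cuts IGF-binding proteins, was at 0.634, 0.578 and 0.642 CPM in clone 1 libraries and 0.446 and 0.404 CPM in clone 2 libraries, against 0.0712, 0.0285 and 0.0485 CPM in wild type libraries. All knockout libraries were above all wild type libraries, where it was close to no reads. It lies on chromosome 10 from 126012381 to 126388455. It rose by a log2 fold change of 3.26 (SE 0.42, adjusted p = 0.00014), 3.53 in clone 1 and 2.99 in clone 2. Its counts were 79 in clone 1 and 37 in clone 2 against 6 in wild type, a ratio scaled for depth of 12.1 (exact 95% interval 5.31 to 33.9) in clone 1 and 8.35 (3.49 to 24.2) in clone 2, intervals that cover counting error only. The nearest other member, MMP21, 236559 bases away, had at most 3 counts.

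ADAM19, a sheddase of neuregulins, had 4.38, 5.07 and 5.06 CPM in clone 1 libraries and 5.30 and 5.59 CPM in clone 2 libraries, against 3.66, 3.20 and 4.41 CPM in wild type libraries. The groups overlapped by clone 1 replicate 1 and wild type replicate 3. ADAM19 rose by 0.45 (log2, SE 0.12, adjusted p = 0.0215), with a call in clone 2 and none in clone 1. The call in the mean was lost with the term for the runs of sample numbers, within sample numbers 1 to 5 and with the GC correction. It was also lost without wild type replicate 1, wild type replicate 2 or clone 2 replicate 2. The other active ADAMs did not pass the test in the mean of the clones. ADAM8 averaged 2.24 ± 0.395 CPM in clone 1, 2.16 ± 0.430 CPM in clone 2 and 1.72 ± 0.279 CPM in wild type libraries (SD, n = 3, 2 and 3; adjusted p = 0.188). ADAM15, the most abundant ADAM, averaged 139 ± 8.47 CPM in clone 1, 131 ± 11.97 CPM in clone 2 and 131 ± 6.70 CPM in wild type libraries (log2 fold change 0.04, SE 0.06).

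The principal sheddases differed little. ADAM10 had 83.8, 92.5 and 89.6 CPM in clone 1 libraries and 86.4 and 93.5 CPM in clone 2 libraries, against 98.1, 95.6 and 97.1 CPM in wild type libraries. All knockout libraries were below all wild type libraries, yet the difference was small (log2 fold change -0.12, SE 0.05, adjusted p = 0.121). Within sample numbers 1 to 5, where each clone is 1 library, it was -0.19. With the term for the runs of sample numbers ADAM10 was called lower. ADAM17 had 44.1, 43.6 and 43.9 CPM in clone 1 libraries and 49.3 and 47.8 CPM in clone 2 libraries, against 47.2, 50.3 and 46.7 CPM in wild type libraries (log2 fold change -0.06, SE 0.05, adjusted p = 0.441). ADAM9 had 59.7, 67.8 and 61.3 CPM in clone 1 libraries and 62.3 and 70.1 CPM in clone 2 libraries, against 74.3, 70.3 and 73.3 CPM in wild type libraries. Its knockout libraries were all lower. It fell in clone 1 by 0.21 (log2, SE 0.06, adjusted p = 0.0435) but did not pass in clone 2 (-0.13, adjusted p = 0.285) or in the mean of the clones (-0.17, adjusted p = 0.0569). Within sample numbers 1 to 5, where each clone is 1 library, the mean was -0.26. With the GC correction the clone 1 value of ADAM9 was -0.0848 and not called (adjusted p = 0.273), and with the term for the runs of sample numbers both clones were called (adjusted p = 0.00468 and 0.0454).

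Of the ADAM proteins without an active zinc site, which serve as adhesion and receptor proteins, 4 passed the filter and 1 fell. ADAM22, a neuronal receptor for the secreted protein LGI1, had 21.3, 25 and 24.7 CPM in clone 1 libraries and 22.7 and 22.2 CPM in clone 2 libraries, against 28.9, 27.9 and 26.9 CPM in wild type libraries. Every knockout library was below every wild type library. ADAM22 fell by 0.28 (log2, SE 0.06, adjusted p = 0.00929), with -0.24 in clone 1 and -0.32 in clone 2, and without wild type replicate 1 the adjusted p was 0.0565. With the GC correction neither clone was called (adjusted p = 0.203 in clone 1 and 0.0716 in clone 2). ADAM11 averaged 25.2 ± 3.13 CPM in clone 1, 29.5 ± 0.896 CPM in clone 2 and 25.5 ± 1.38 CPM in wild type libraries, and ADAM23 averaged 19.3 ± 0.953 CPM in clone 1, 19.9 ± 1.05 CPM in clone 2 and 19.0 ± 0.531 CPM in wild type libraries. Neither passed the test (adjusted p = 0.414 and 0.664). ADAM32, a testis gene, was low at 0.151 to 0.668 CPM in clone 1 and 0.446 CPM in both clone 2 libraries, against 0.582 to 0.970 CPM in wild type libraries (log2 fold change -0.80, SE 0.34, adjusted p = 0.129). On chromosome 8 it starts at 39106990, only 1845 bases after the end of ADAM9, one of the highest members. Within sample numbers 1 to 5, where each clone is 1 library, its log2 fold change was -1.57, and without clone 1 replicate 2 it was -1.09 (adjusted p = 0.0402).

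The proteoglycan-cleaving ADAMTS genes split: of 6 that passed the filter, 2 rose and 1 fell. ADAMTS5, a principal aggrecanase of cartilage, had 0.393, 0.271 and 0.518 CPM in clone 1 libraries and 0.322 and 0.319 CPM in clone 2 libraries, against 0.0475, 0.0571 and 0 CPM in wild type libraries. All knockout libraries were several times the highest wild type library, and all were low. ADAMTS5 rose by 3.27 (log2, SE 0.60, adjusted p = 0.00228), 3.40 in clone 1 and 3.13 in clone 2. With 49 and 28 counts in the clones against 4 in wild type, the ratio was 11.2 (4.12 to 42.9) in clone 1 and 9.48 (3.32 to 37.2) in clone 2. Its neighbour on chromosome 21, ADAMTS1, which cuts versican and aggrecan, averaged 6.53 ± 0.847 CPM in clone 1, 6.66 ± 0.00576 CPM in clone 2 and 6.65 ± 0.472 CPM in wild type libraries. The genes are 72502 bases apart, and ADAMTS1 had a log2 fold change of -0.01 (SE 0.10, adjusted p = 0.951).

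ADAMTS8, a related secreted protease, had 0.967, 0.704 and 0.691 CPM in clone 1 libraries and 1.29 and 0.956 CPM in clone 2 libraries, against 0.214, 0.314 and 0.291 CPM in wild type libraries. The groups did not overlap. ADAMTS8 (chromosome 11, 130404925 to 130428993) rose by 1.77 (log2, SE 0.28, adjusted p = 0.000653), 1.51 in clone 1 and 2.03 in clone 2, with 99 and 97 counts in the clones against 32 in wild type. Its neighbour ADAMTS15, 19980 bases away on the other strand and of the same enzyme group, averaged 2.40 ± 0.191 CPM in clone 1, 1.93 ± 0.176 CPM in clone 2 and 1.95 ± 0.284 CPM in wild type libraries (adjusted p = 0.568). In both of these neighbour pairs 1 gene was called and the other was not, and the difference within a pair was not tested.

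ADAMTS9, a versican-cutting protease, went the other way at 4.62, 5.47 and 5.16 CPM in clone 1 libraries and 5.08 and 5.25 CPM in clone 2 libraries, against 6.24, 6.91 and 6.43 CPM in wild type libraries. All knockout libraries were lower. ADAMTS9 fell by 0.34 (log2, SE 0.10, adjusted p = 0.0244), with the same direction in both clones but a call in clone 1 only. Leaving out any 1 wild type library or clone 2 replicate 1 ended the call in the mean. ADAMTS4, the other main aggrecanase, had 0.393, 0.451 and 0.494 CPM in clone 1 libraries and 0.198 and 0.170 CPM in clone 2 libraries, against 0.214, 0.228 and 0.242 CPM in wild type libraries. Its clone 1 libraries were all above the rest, but the log2 fold change of 0.97 in clone 1 did not pass (SE 0.34, adjusted p = 0.0699), nor did that of -0.31 in clone 2.

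Of the procollagen N-proteinases, which remove the amino-terminal propeptide of fibrillar collagens, ADAMTS2 was steady and ADAMTS3 was lower in clone 1. ADAMTS3, which also processes the lymphatic growth factor VEGF-C, had 7.19, 7.38 and 8.19 CPM in clone 1 libraries and 9.51 and 11.03 CPM in clone 2 libraries, against 11.2, 10.4 and 11.7 CPM in wild type libraries. Clone 1 was below all other libraries, while clone 2 replicate 2 lay within the wild type range. ADAMTS3 fell by 0.33 in the mean of the clones (log2, SE 0.09, adjusted p = 0.0172) and by 0.55 in clone 1 (SE 0.10, adjusted p = 0.00204), with -0.11 in clone 2 (adjusted p = 0.580). The difference between the clones missed the threshold (0.44, SE 0.11, adjusted p = 0.059). The call in the mean was lost without wild type replicate 1, wild type replicate 3 or clone 2 replicate 1 and with the knockout libraries taken as 1 group, with adjusted p up to 0.0780. ADAMTS2 averaged 22.7 ± 0.552 CPM in clone 1, 21.6 ± 0.874 CPM in clone 2 and 20.8 ± 2.04 CPM in wild type libraries (log2 fold change 0.09, SE 0.07, adjusted p = 0.390).

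Of the 6 other ADAMTS genes that passed, ADAMTS7 and ADAMTS13 rose. ADAMTS13, the protease that cuts von Willebrand factor in blood, had 4.99, 5.67 and 6.19 CPM in clone 1 libraries and 6.66 and 6.57 CPM in clone 2 libraries, against 2.99, 3.51 and 3.01 CPM in wild type libraries. The lowest knockout library was well above the highest wild type library. ADAMTS13 (chromosome 9, 133414358 to 133459402) rose by 0.95 (log2, SE 0.11, adjusted p = 7.51e-05), 0.83 in clone 1 and 1.06 in clone 2. ADAMTS7, which cuts the cartilage protein COMP, had 27.1, 27.6 and 32.5 CPM in clone 1 libraries and 23.8 and 23.6 CPM in clone 2 libraries, against 18.1, 19.0 and 19.4 CPM in wild type libraries. Its mean level per length was the highest of the ADAMTS genes in wild type cells, in a range that overlapped that of ADAMTS2. ADAMTS7 rose by 0.48 (log2, SE 0.07, adjusted p = 0.000396). Clone 1 had 0.63 and clone 2 had 0.33, a difference of clone 2 over clone 1 that missed the threshold (-0.30, SE 0.08, adjusted p = 0.132). The promoters of ADAMTS7 and ADAM12, printed above, both carry GC boxes, yet their wild type levels of 2.44 and 0.00501 CPM per kb lie far apart.

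The remaining ADAMTS genes were not called in the mean of the clones. ADAMTS17 averaged 3.89 ± 0.214 CPM in clone 1, 3.70 ± 0.0913 CPM in clone 2 and 3.30 ± 0.266 CPM in wild type libraries, with all knockout libraries above wild type and an adjusted p of 0.245. ADAMTS6, a close relative of ADAMTS10, had 0.151, 0.199 and 0.197 CPM in clone 1 libraries and 0.0990 and 0.234 CPM in clone 2 libraries, against 0.285, 0.285 and 0.630 CPM in wild type libraries. All knockout libraries were lower, but the difference did not pass (log2 fold change -1.17, SE 0.41, adjusted p = 0.0653), and the gene passed the filter through wild type libraries alone. ADAMTS12 had 0.242 to 0.559 CPM in clone 1 libraries and 0.149 and 0.0850 CPM in clone 2 libraries, against 0.228 to 0.606 CPM in wild type libraries. Its log2 fold change was 0.18 in clone 1 (SE 0.42) and -1.75 in clone 2 (SE 0.60, adjusted p = 0.0805), and the clone difference of -1.93 did not pass (adjusted p = 0.164).

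ADAMTS10, which binds fibrillin-1 and is mutated in Weill-Marchesani syndrome, differed between the clones. It had 1.18, 1.70 and 1.31 CPM in clone 1 libraries and 3.09 and 2.25 CPM in clone 2 libraries, against 1.85, 1.43 and 1.87 CPM in wild type libraries. Both clone 2 libraries were above all the others. Clone 2 was higher than clone 1 by 0.91 (log2, SE 0.22, adjusted p = 0.0479), where 2.09% of all features were called between the clones in either direction, while neither clone passed against wild type (-0.28 in clone 1, adjusted p = 0.385; 0.63 in clone 2, adjusted p = 0.0824). The call sits at the threshold. With the replicate number as a block the adjusted p was 0.104. Within sample numbers 1 to 5, where each clone is 1 library, it was 0.0550, and without clone 2 replicate 1, the higher of its libraries, which leaves 1 library in clone 2, it was 0.495. Leaving out clone 1 replicate 1 or 3 or any 1 of the wild type libraries, from which the spread is also estimated, gave 0.0509 to 0.116.

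The clearest clone-specific value was that of ADAMTSL4, a microfibril-binding protein whose loss displaces the lens of the eye. ADAMTSL4 had 14.2, 15.6 and 16.9 CPM in clone 1 libraries and 5.27 and 4.74 CPM in clone 2 libraries, against 16.1, 13.2 and 15.2 CPM in wild type libraries. Clone 1 overlapped the wild type range, and clone 2 stood below every other library. ADAMTSL4 (chromosome 1, 150549369 to 150560937) fell in clone 2 by 1.57 (log2, SE 0.12, adjusted p = 1.34e-06), with 0.07 in clone 1 (SE 0.10, adjusted p = 0.670). The difference between the clones was -1.64 (SE 0.12, adjusted p = 1.65e-06), and it was called under every alternative setting tried, at -1.44 to -1.71. Within sample numbers 1 to 5, the source of the -1.44, each clone is a single library, and leaving out either clone 2 library leaves 1 there, so these tests assume that a lone library varies like the others. Its call in the mean of the clones (-0.75, SE 0.09, adjusted p = 7.17e-05) therefore reflects clone 2 values and was lost when the knockout libraries were taken as 1 group (adjusted p = 0.644). The antisense gene ADAMTSL4-AS1 shares 11.4% of the exon bases of ADAMTSL4 and did not pass the test (log2 fold change -0.09, adjusted p = 0.890). In the single-end pair ADAMTSL4 had 260 counts in the knockout and 832 in the wild type library.

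ADAMTSL5, another fibrillin-binding member, rose in both clones. It had 12.1, 10.8 and 14.9 CPM in clone 1 libraries and 9.65 and 10.6 CPM in clone 2 libraries, against 6.10, 5.82 and 8.24 CPM in wild type libraries. The groups did not overlap. ADAMTSL5 rose by 0.75 (log2, SE 0.14, adjusted p = 0.00281), 0.90 in clone 1 and 0.59 in clone 2. The clone 2 call (adjusted p = 0.0386) was lost with the term for the runs of sample numbers (0.0998), within numbers 1 to 5 (0.0898) and with the GC correction (0.0523). ADAMTSL1 averaged 17.3 ± 1.67 CPM in clone 1, 20.5 ± 0.221 CPM in clone 2 and 19.9 ± 0.231 CPM in wild type libraries and did not pass (adjusted p = 0.462).

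**Figure D4:**
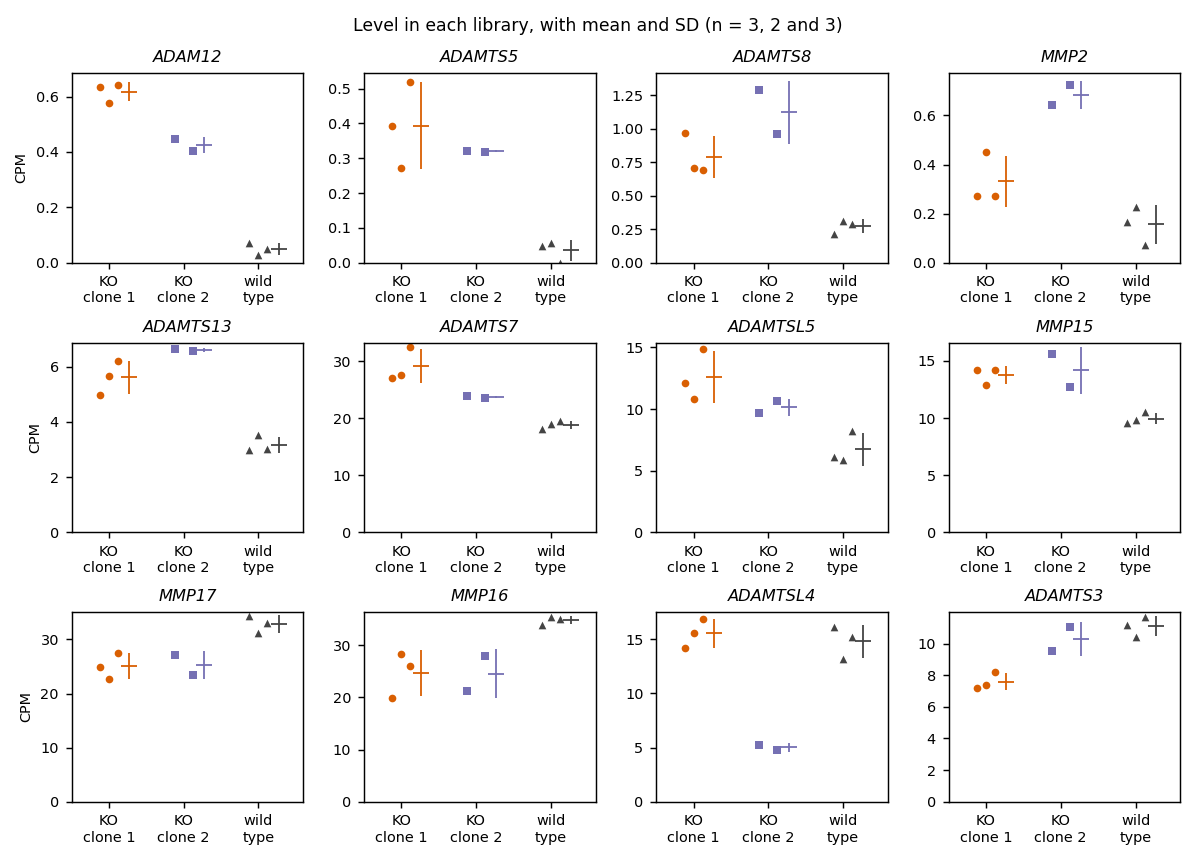
CPM (y axes, from 0) in each library of knockout clone 1, knockout clone 2 and wild type for 12 of the members called in the mean of the clones, with the mean and SD beside the points. The upper 8 panels hold genes whose knockout libraries all lie above wild type, MMP17 and MMP16 have all knockout libraries below wild type, ADAMTSL4 is low only in clone 2, and ADAMTS3 is lowest in clone 1.

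The membrane-type MMPs moved in opposite directions: of 6 that passed the filter, MMP15 and MMP24 rose and MMP16 and MMP17 fell. MMP15 (MT2-MMP) had 14.2, 12.9 and 14.2 CPM in clone 1 libraries and 15.6 and 12.7 CPM in clone 2 libraries, against 9.52, 9.82 and 10.5 CPM in wild type libraries. The groups did not overlap. MMP15 (chromosome 16, 58025566 to 58046901) rose by 0.49 (log2, SE 0.09, adjusted p = 0.00172), with 0.47 in clone 1 and 0.51 in clone 2. MMP24 (MT5-MMP), which is known from neurons and cuts N-cadherin, had 13.5, 15.9 and 15.3 CPM in clone 1 libraries and 14.6 and 13.9 CPM in clone 2 libraries, against 9.71, 11.7 and 11.3 CPM in wild type libraries. Here too every knockout library was higher. MMP24 rose by 0.42 (log2, SE 0.09, adjusted p = 0.00467). The gene MMP24OS on the opposite strand shares 18.1% of the exon bases of MMP24 and rose by 0.40 (adjusted p = 0.000367). How the counter treated strand is not known here, and whether MMP24 counts include MMP24OS reads was not tested. At another antisense pair, TMEM198B shares 17.4% of the exon bases of MMP19. There MMP19 reached at most 5 counts in any paired-end library, while TMEM198B reached 1773. In all, 13 members that passed share exon bases with a gene on the other strand.

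MMP17 (MT4-MMP), which is anchored by a lipid rather than a membrane-spanning segment, was the most abundant MMP per length. It had 24.9, 22.8 and 27.5 CPM in clone 1 libraries and 27.1 and 23.5 CPM in clone 2 libraries, against 34.3, 31.2 and 33.1 CPM in wild type libraries. Every knockout library was lower. MMP17 fell by 0.39 (log2, SE 0.07, adjusted p = 0.00232), by 0.39 in clone 1 and 0.38 in clone 2. MMP16 (MT3-MMP) had 19.8, 28.4 and 26.0 CPM in clone 1 libraries and 21.2 and 27.9 CPM in clone 2 libraries, against 34.0, 35.4 and 35.1 CPM in wild type libraries. Its wild type libraries were close together, and its knockout libraries were lower and more spread. MMP16 fell by 0.49 (log2, SE 0.12, adjusted p = 0.0239), with a call in clone 1 (-0.48, adjusted p = 0.0438) and none in clone 2 (-0.50, adjusted p = 0.0771). Both clones were called with the replicate block (adjusted p = 0.00168 and 0.0062) and with the term for the runs of sample numbers (5.46e-06 and 5.89e-06), and neither with the GC correction (0.0754 and 0.0955). Its lowest library in each clone carries a sample number from 1 to 5. Within those numbers, where each clone is 1 library, the log2 fold change was -0.77, and the spread of the knockout libraries does not enter. Leaving out any 1 wild type library ended the call, with adjusted p of 0.0565 to 0.0776 and log2 fold changes of -0.49 to -0.52.

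MMP14 (MT1-MMP), the main activator of pro-MMP2, had 1.15, 1.35 and 1.75 CPM in clone 1 libraries and 1.34 and 1.55 CPM in clone 2 libraries, against 0.879, 1.26 and 0.921 CPM in wild type libraries, and did not pass (log2 fold change 0.50, SE 0.20, adjusted p = 0.107). MMP25, the other lipid-anchored member, averaged 2.77 ± 0.205 CPM in clone 1, 2.98 ± 0.580 CPM in clone 2 and 2.34 ± 0.101 CPM in wild type libraries. All its knockout libraries were above wild type, with an adjusted p of 0.161, and 35.2% of its exon bases are shared with the antisense gene MMP25-AS1.

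Of the secreted MMPs, 2 of 16 passed the filter. MMP2, gelatinase A, had 0.272, 0.451 and 0.271 CPM in clone 1 libraries and 0.644 and 0.723 CPM in clone 2 libraries, against 0.166, 0.228 and 0.0727 CPM in wild type libraries. All knockout libraries were higher, clone 2 most. MMP2 rose by 1.64 in the mean of the clones (log2, SE 0.40, adjusted p = 0.0114) and by 2.14 in clone 2 (adjusted p = 0.00636), with 1.15 in clone 1 (adjusted p = 0.0993), and the clone difference of 1.00 did not pass (adjusted p = 0.366). It had 45 counts in clone 1 and 60 in clone 2 against 18 in wild type, ratios of 2.29 (1.302 to 4.21) and 4.51 (2.63 to 8.12). The call in the mean was lost within sample numbers 1 to 5 (adjusted p = 0.0847) and without wild type replicate 3 (adjusted p = 0.0588). MMP11, stromelysin-3, had 7.52, 6.93 and 6.47 CPM in clone 1 libraries and 5.77 and 5.91 CPM in clone 2 libraries, against 5.29, 5.96 and 5.02 CPM in wild type libraries. Clone 1 was above all others, and MMP11 rose in clone 1 by 0.36 (log2, SE 0.11, adjusted p = 0.0383) without passing in clone 2 (0.11, adjusted p = 0.653) or in the mean (0.24, adjusted p = 0.124). With the GC correction the clone 1 value of MMP11 was 0.21 and not called (adjusted p = 0.263).

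Of the inhibitors, TIMP1 was called and TIMP2 and TIMP3 were not. TIMP1 had 44.4, 45.2 and 41.5 CPM in clone 1 libraries and 43.5 and 42.3 CPM in clone 2 libraries, against 35.2, 34.3 and 41.9 CPM in wild type libraries. Wild type replicate 3 lay within the knockout range. TIMP1 rose by 0.22 (log2, SE 0.07, adjusted p = 0.0374), and 9 of the 19 alternative settings ended the call, among them the correction for GC content (adjusted p = 0.371) and leaving out wild type replicate 1, wild type replicate 2, clone 1 replicate 1, clone 1 replicate 2 or either clone 2 library (adjusted p = 0.0551 to 0.236). TIMP2 had 64.5, 66.8 and 59.0 CPM in clone 1 libraries and 59.3 and 61.5 CPM in clone 2 libraries, against 55.3, 55.4 and 57.9 CPM in wild type libraries, all knockout libraries above wild type (log2 fold change 0.14, SE 0.05, adjusted p = 0.0826). TIMP3, the matrix-bound inhibitor that also blocks ADAM17, had 5.02, 7.26 and 5.65 CPM in clone 1 libraries and 5.45 and 5.46 CPM in clone 2 libraries, against 5.18, 5.34 and 4.83 CPM in wild type libraries (log2 fold change 0.17, SE 0.12, adjusted p = 0.388).

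Fold changes of the members went with the GC content of their transcripts, as those of all genes did. Across the 39 members that passed, Spearman's rho between log2 fold change and GC content of the longest transcript was 0.43, and across 19549 genes it was 0.42, a description over genes of the same libraries. Members that rose had a median GC content of 60.6% (40.9% to 66.0%), those that fell 45.7% (36.4% to 68.7%) and those not called 54.2%. After a correction of each library for GC content, rho was 0.30 over the members and 0.03 over all genes. With it 9 members rose, where 7.88% of all features rose, and 5 fell, where 6.96% fell. ADAM19 (adjusted p = 0.0513), ADAM22 (0.0550) and TIMP1 (0.371) were the ones no longer called in the mean of the clones. ADAMTS5 and ADAM12, the members with the largest rise, are among the AT-richer genes, and ADAMTSL4 and MMP17, which fell, are GC-rich.

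**Figure D5:**
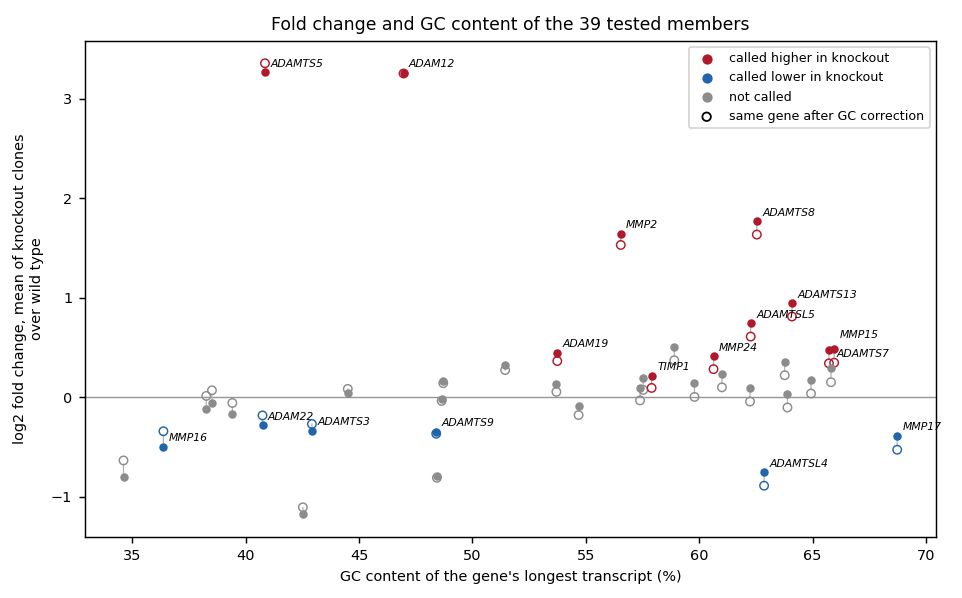
Log2 fold change in the mean of the knockout clones over wild type (y axis) against GC content of the longest transcript (x axis, %), for the 39 members that passed the filter, with filled points before and open points after correction for GC content. Most small positive fold changes lie above 55% GC and shift toward 0 with the correction, while ADAMTS5, ADAM12, MMP2 and ADAMTS8 stay high.

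The single-end libraries were 1 a group and give values only, with log2 fold changes computed with a prior count of 2 where the pair held at least 20 counts. Of the 17 members called in the mean of the clones, 15 had such a value and 14 had the same sign, where 85.2% of all called features with a value did. ADAMTS13 had 271 counts in the knockout and 136 in the wild type library (log2 fold change 1.08), ADAMTSL5 412 and 238 (0.88), ADAMTS7 1092 and 761 (0.62), MMP15 582 and 419 (0.57), and MMP2 18 and 7 (1.23). ADAM12 had 14 and 5 counts and ADAMTS5 6 and 0. Lower in the knockout library were ADAMTSL4 (-1.57), ADAMTS9 at 269 and 408 counts (-0.50) and MMP17 at 964 and 1405 counts (-0.45). MMP16, ADAM22 and ADAMTS3 were within -0.05 to -0.01 of no difference, ADAM19 was at 0.07, and TIMP1 was at -0.11, the one opposite sign. The ADAMTSL4 value equals that of clone 2, though which clone the single-end library came from is not given.

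The genes that activate or carry these proteases, from a list written with the families, were called in both directions. This list and the partner lists below were chosen with earlier results of these data known. Their counts therefore describe the listed genes and are no test of the lists, and the shares of all features are given for scale. Of the genes named below, CX3CL1 and MFAP5 passed the filter on low counts through knockout libraries alone. TLL1 passed it through wild type libraries alone. Of 14 tested, 4 rose, where 9.87% of all features did, and 2 fell, where 8.09% did. After the GC correction 2 of 14 rose (7.88% of all features), FURIN and TSPAN5, and 2 of 14 fell (6.96%). TSPAN5 was called with the correction (log2 fold change 0.37, adjusted p = 0.0478) but not before it (0.32, adjusted p = 0.0805). Its value before the correction was 0.67 in clone 2 and -0.03 in clone 1. FURIN, the convertase that removes the prodomain of many ADAM and MMP proteins, averaged 61.1 ± 2.82 CPM in clone 1, 56.9 ± 3.17 CPM in clone 2 and 48.1 ± 3.15 CPM in wild type libraries (log2 fold change 0.30, SE 0.06, adjusted p = 0.00321). TSPAN17 and TSPAN33, tetraspanins that carry ADAM10 to the surface, rose by 0.26 and 0.25 (adjusted p = 0.00467 and 0.0135), and RHBDF1, the iRhom that carries ADAM17, by 0.24 (adjusted p = 0.0474). With the GC correction FURIN was at 0.16 (adjusted p = 0.0396). The calls of TSPAN17, TSPAN33 and RHBDF1 were lost under it (adjusted p = 0.0576, 0.109 and 0.368). The convertases PCSK5 and PCSK6 fell by 0.43 and 0.23 (adjusted p = 0.0167 and 0.0276). Both were lower in clone 1 than in clone 2, with differences of clone 2 over clone 1 of 0.69 (adjusted p = 0.019) and 0.35 (adjusted p = 0.0392). Their calls in the mean were lost without wild type replicate 1, wild type replicate 2 or clone 2 replicate 2 (adjusted p up to 0.0823 for PCSK5 and 0.119 for PCSK6), with the term for the runs of sample numbers (0.0543 and 0.182) and with the knockout libraries as 1 group (0.117 and 0.119). PCSK6 was also not called within sample numbers 1 to 5 (adjusted p = 0.126). The call of TSPAN33 was lost without wild type replicate 1 (adjusted p = 0.114), and that of RHBDF1 under 12 of 19 alternative settings (adjusted p up to 0.368).

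In the list of plasminogen activation and non-TIMP inhibitors, 3 of 8 tested rose, where 9.87% of all features did, and 2 fell, where 8.09% did. PLAT, tissue plasminogen activator, averaged 0.687 ± 0.0943 CPM in clone 1, 2.96 ± 0.755 CPM in clone 2 and 0.537 ± 0.123 CPM in wild type libraries. It rose by 1.40 in the mean of the clones (adjusted p = 0.00105), carried by clone 2 (2.44 against 0.35 in clone 1), and the clone difference was called (2.09, adjusted p = 0.000157). PLAUR, the urokinase receptor, rose by 0.72 and A2M, a general protease trap, by 0.94 (adjusted p = 0.000786 and 0.00488). RECK, a membrane-anchored MMP inhibitor, averaged 8.03 ± 0.360 CPM in clone 1, 8.16 ± 0.269 CPM in clone 2 and 10.8 ± 0.378 CPM in wild type libraries and fell by 0.41 (adjusted p = 0.00249). TFPI2, a serine protease inhibitor of the matrix, had 2.30, 2.18 and 2.37 CPM in clone 1 libraries and 0.0248 and 0 CPM in clone 2 libraries, against 2.04, 1.28 and 1.72 CPM in wild type libraries. It was all but absent from clone 2, and the clones differed (adjusted p = 1.24e-06), so its fall in the mean of the clones came with clone 2 values alone. With the knockout libraries as 1 group the adjusted p was 0.889 for TFPI2 and 0.211 for PLAT.

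Among shed ligands and receptors, the substrates of the ADAM sheddases, 5 of 13 tested rose, where 9.87% of all features did, and 2 fell, where 8.09% did, with the same counts after the GC correction. CD44, the hyaluronan receptor, averaged 8.71 ± 0.727 CPM in clone 1, 6.83 ± 0.0720 CPM in clone 2 and 1.93 ± 0.170 CPM in wild type libraries (log2 fold change 1.99, SE 0.11, adjusted p = 7.31e-08). TGFA, a ligand released by ADAM17, rose by 1.54 (adjusted p = 0.000245), and L1CAM, an adhesion molecule, by 1.07 (adjusted p = 2.16e-05). The membrane-bound chemokine CX3CL1 was low at 0.188 ± 0.0599 CPM in clone 1, 0.936 ± 0.0285 CPM in clone 2 and 0.0350 ± 0.0191 CPM in wild type libraries, and rose (adjusted p = 0.000343), more in clone 2 (clone difference 2.31, adjusted p = 0.00284). Its wild type libraries were all under the filter level, so the gene was tested only because it was higher in the knockout. NRG1, neuregulin-1, averaged 0.182 ± 0.0664 CPM in clone 1, 0.274 ± 0.00278 CPM in clone 2 and 1.32 ± 0.0997 CPM in wild type libraries and fell by 2.503 (adjusted p = 1.2e-05). CDH2, N-cadherin, fell by 0.34 in clone 1 (adjusted p = 0.00353) but was at -0.03 in clone 2 (adjusted p = 0.838), a difference that was called (0.31, adjusted p = 0.0458). In the mean of the clones it fell by 0.19 (adjusted p = 0.0416), a call lost under the GC correction (adjusted p = 0.0553) and without any 1 of the wild type libraries, clone 1 replicate 3 or clone 2 replicate 1 (adjusted p up to 0.157). With the knockout libraries as 1 group the CDH2 adjusted p was 0.166.

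Of 8 matrix substrates tested, 3 rose, where 9.87% of all features did, and 3 fell (4 after the GC correction), where 8.09% did. The ADAMTS7 substrate COMP averaged 1.53 ± 0.177 CPM in clone 1, 2.26 ± 0.163 CPM in clone 2 and 0.504 ± 0.197 CPM in wild type libraries and rose by 1.88 (adjusted p = 9.62e-05). COL5A2 rose by 1.301 and COL1A1 by 0.76 (adjusted p = 1.09e-05 and 1.28e-05), both more in clone 2 than in clone 1 (adjusted p = 0.000245 and 0.0247 for the difference). With the knockout libraries as 1 group the COL5A2 adjusted p was 0.0549. VCAN, versican, averaged 0.172 ± 0.0447 CPM in clone 1, 0.235 ± 0.0878 CPM in clone 2 and 1.57 ± 0.103 CPM in wild type libraries (log2 fold change -2.94, SE 0.24, adjusted p = 2.46e-06). VEGFC fell by 1.40 (adjusted p = 0.00146) and FN1, fibronectin, by 0.30 (adjusted p = 0.0164, but 0.0930 without wild type replicate 3 and 0.0620 without clone 2 replicate 1). Of 5 procollagen processing partners tested, BMP1, the C-proteinase, rose by 0.22 (adjusted p = 0.0264, and 0.323 after the GC correction, with the call also lost without any 1 wild type or clone 2 library and, at 0.0907, with the term for the runs of sample numbers). Its relative TLL1 averaged 0.120 ± 0.0289 CPM in clone 1, 0.0460 ± 0.00496 CPM in clone 2 and 1.20 ± 0.230 CPM in wild type libraries and fell (adjusted p = 1.86e-06). Of 10 fibrillin microfibril genes tested, LTBP2 rose by 1.60 (adjusted p = 0.000401) and MFAP5 by 2.49 (adjusted p = 0.0206), the second at no more than 0.246 CPM on average in any group, and none fell in the mean of the clones (1 did after the GC correction), where the shares of all features were again 9.87% and 8.09%. MFAP2, a microfibril protein named here after its values were seen, averaged 24.7 ± 2.77 CPM in clone 1, 10.5 ± 0.502 CPM in clone 2 and 16.0 ± 1.49 CPM in wild type libraries. It rose in clone 1 by 0.63 (adjusted p = 0.00057) and fell in clone 2 by 0.60 (adjusted p = 0.00272), and the clones differed (-1.23, adjusted p = 1.26e-05), so its mean of the clones was 0.01. The MFAP5 call was lost without any 1 wild type library or clone 2 replicate 2 (adjusted p up to 0.0799) and with the term for the runs of sample numbers (0.0972).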

How the data were processed

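The authors deposited unnormalized read counts, as whole numbers, for genes and repeat subfamilies in a table of the 8 paired-end libraries and a table of the single-end pair. Libraries came from a stranded mRNA kit with spike-in RNA, which was not used here, per the labels' protocols. The submitters' processing notes name STAR 2.5.2a and hg38, and the table names give TEToolkit as the counter. The sources used here do not give its version, strand setting or annotation. Symbols, exon lengths and GC content came from GENCODE 29.

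With R 4.3.3 and edgeR 4.0.16, counts were filtered (filterByExpr), scaled (TMM) and tested with the quasi-likelihood F test, a robust fit of 3 group means to the 8 paired-end libraries. Benjamini-Hochberg adjustment ran over 20747 features. Unless a clone is named, fold changes are those of the mean of the clones. Each SE was taken from the log2 fold change and its F statistic (size over root F). CPM are counts over TMM-scaled library sizes. Depth bounds low values: 3 counts are 0.0539 to 0.0904 CPM.

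No label says that replicates were separate cultures. The p-values then measure only the spread of these samples, which may be technical. Members and gene lists were chosen with earlier results of these data known. All members that passed the filter are named, and up to 4 called genes per list and direction of the other lists. Alternatives included DESeq2 1.42.0, limma 3.58.1 (voom), other scalings and filters, the replicate number as a block, sample-number terms, GC correction (loess, span 0.3), the knockout libraries as 1 group and leaving out each library. The code was tested on simulated counts. Of the blood markers listed, 1 is not reported here.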

Additional observations from a re-analysis of the deposited data

Results flagged for a closer look

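ADAMTSL4 differed between the knockout clones: clone 2 over clone 1 had a log2 difference of -1.64 (SE 0.12, adjusted p = 1.65e-06 in edgeR's test), with 5.27 and 4.74 CPM in both clone 2 libraries and 14.2 to 16.9 CPM in the clone 1 libraries. ADAMTS10 differed in the other direction, by 0.91 (SE 0.22, adjusted p = 0.0479), and this value sits at the threshold.

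MMP19 had 169 counts in the single-end knockout library and 129 in the single-end wild type library, while in the table of paired-end libraries it reached at most 5 counts in any library and 9 in all. TMEM198B, on the opposite strand, shares 17.4% of the exon bases of MMP19 and had 1074 and 871 counts in the single-end knockout and wild type libraries. Other antisense pairs differed in the same way between the tables: the antisense gene ENSG00000267601 at TIMP2 had 187 and 164 counts in the single-end pair and at most 2 in any paired-end library, and ENSG00000259250 at ADAM10 had 22 and 38 counts against 0. The sources used here do not say how strand was handled in each table, and its part in these counts was not tested.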

How the results depend on the processing

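Of 319 recomputed values of the 17 members called in the mean of the clones, 288 kept direction and call, 31 lost the call and none changed sign. In that mean, the calls of ADAM12, ADAMTS5, ADAMTS7, ADAMTS8, ADAMTS13, ADAMTSL5, MMP15, MMP17 and MMP24 were kept under each alternative that tested them. The number of members called, 17 in the mean of the clones, 16 in clone 1, 13 in clone 2 and 2 between the clones, ranged from 11 to 18, 10 to 15, 6 to 15 and 1 to 3 when 1 library was left out. The lowest were without wild type replicate 1 (11 in the mean, and 10 in clone 1, as without wild type replicate 2) and without clone 2 replicate 1 (6 in clone 2, against 8 without clone 2 replicate 2 and 7 without wild type replicate 1). In clone 2 the GC correction left 8 calls. Between the clones there was 1 call with limma voom, with at least 1 CPM in 2 libraries and within sample numbers 1 to 5, and 5 with no filter. The ADAMTS10 clone difference lost its call with limma voom (adjusted p = 0.0609), with at least 1 CPM in 2 libraries (0.0538), within sample numbers 1 to 5 (0.0550) and with the replicate block (0.104). The cause of these changes was not tested.

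Whether replicate numbers pair the samples cannot be settled from these libraries. With group means taken out, the same-number correlations of wild type and clone 1 libraries were -0.08, -0.07 and -0.39. Those of wild type and clone 2 libraries were -0.07 and 0.14, and those of clone 1 and clone 2 libraries, which share a run of sample numbers as well, 0.51 and 0.50. The clones share only 2 numbers, and no label ties them. Because clone 2 has 2 libraries, their deviations from the group mean mirror each other, so values with clone 2 cannot decide on pairing. With the replicate number as a block the counts were 18, 16, 14 and 2.

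Signs changed only for members not called. With the GC correction ADAM10 was at 0.0156, ADAM11 at -0.0407, ADAM15 at -0.1008, ADAM17 at 0.0720 and ADAMTS2 at -0.0292. Leaving out 1 library put ADAM15 between -0.0157 (without clone 2 replicate 1) and 0.0730, and ADAMTS1 between -0.0793 and 0.0209, above 0 without wild type replicate 1, wild type replicate 2 or clone 1 replicate 2. ADAM23 was at -0.0242 with the sample-number term and -0.0288 within sample numbers 1 to 5. Low counts limit ADAM12, ADAMTS5, MMP2, ADAMTS4, ADAMTS6 and ADAMTS12 most.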
